A study of Danio rerio with 68 samples.

Results

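Bloodthirsty-related genes (btr) and finTRIM genes (ftr) are 2 fish gene families of the tripartite motif (TRIM) class. They were followed here through brain, liver and skin of male zebrafish of 2 ages, with and without the pesticide rotenone. The members were chosen by symbol and by mean level in these libraries. Rows of the count table whose symbol is btr or ftr followed by a digit were taken, and a gene was a member in a tissue where its mean over all libraries of that tissue was at least 0.5 CPM (the count of a gene scaled to the same total in every library). Of 32677 genes in the table, 80 rows carried such a symbol, 19 of them btr and 61 ftr. The level was reached in at least 1 tissue by 74 of them, all 19 btr genes and 55 ftr genes. There were 50 members in brain (14 btr, 36 ftr), 63 in liver (16 btr, 47 ftr) and 68 in skin (18 btr, 50 ftr), and 47 genes were members in all 3 tissues. The 6 genes below the level everywhere were ftr04, ftr05, ftr06, ftr08, ftr10 and ftr32. The level chose the members, so tissue levels are given as a description without a test.

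TRIM proteins typically carry a RING finger, which can make them ubiquitin ligases, followed by B-box zinc fingers and a coiled coil. In both families many proteins end in a B30.2 domain, the part that recognises a target in several antiviral TRIM proteins. The founding bloodthirsty gene was named for its requirement in zebrafish red blood cell formation. FinTRIM genes were first found in trout leukocytes as transcripts induced by virus, and zebrafish holds many of them, often as tandem copies. Interferons signal through receptors, Janus kinases and STAT and IRF factors to a large set of antiviral genes, the interferon-stimulated genes. For most single btr and ftr genes no particular role is stated here.

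The fish were 12 or 36 months old , and age cannot be told apart from whatever else differed between the fish of each age. The 36-month fish were kept for 3 or 8 weeks either with rotenone at 3.75 nM, an inhibitor of mitochondrial complex I, or as controls, and the 12-month fish were controls only. Per the protocol the control tanks received the solvent DMSO, while the labels list the control treatment as none. Brain and skin each had 3 libraries of 12-month controls at 3 weeks, 3 at 8 weeks, 3 of 36-month controls at 3 weeks, 4 at 8 weeks, 5 of rotenone fish at 3 weeks and 6 at 8 weeks. Liver had 2, 3, 2, 3, 4 and 6 libraries in the same order. How many tanks there were is not stated, and p-values measure the spread between fish, so that a shared tank cannot be told apart from the treatment. In whole tissue, fewer cells of a type and less RNA per cell cannot be told apart.

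Libraries held 24142523 to 54900946 counted reads in brain (median 29127840), 28710443 to 47257891 in liver (35950900) and 24283045 to 34446248 in skin (28763076), so that a count of 0 allowed up to 0.0546 to 0.124 CPM. Defining markers matched the labelled tissue in every library, with neuron markers at 0.817 to 1.08% of counts in brain, hepatocyte markers at 4.11 to 19.2% in liver and keratinocyte markers at 2.19 to 4.92% in skin. Some libraries stood apart. Intestine markers took 2.72% of counts in the liver of 36-month control replicate 3 at 8 weeks and at most 0.0754% in the 19 other livers. Testis markers took 0.153% in skin of 12-month control replicate 2 at 3 weeks, and muscle markers 10.3% in skin of 36-month control replicate 3 at 3 weeks. Brain replicates 3 and 4 of the 3-week rotenone group were set apart too, a choice made with earlier results of these data known. No marker criterion is given for these brains. The counts of called members that rest on these libraries are given with and without them. Hepatocyte markers took 1.41% of counts in skin of 12-month control replicate 1 at 3 weeks, where the next skin was at 0.0257%, and 0.274% in brain of rotenone replicate 6 at 8 weeks, where the next brain was at 0.0555%. These libraries were only left out singly, the skin giving 0 called members by age and 2 by time, and the brain 0 after 8 weeks of rotenone.

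Levels differed by family and tissue. Summed over all rows of a family, ftr transcripts made up 140 to 233 CPM in brain, 87.3 to 623 in liver (median 141) and 256 to 598 in skin (380). The btr sum was 7.39 to 32.6 CPM in brain (18.3), 25.3 to 235 in liver (39.9) and 115 to 294 in skin (196). Both liver maxima came from 36-month control replicate 3 at 8 weeks, and the 19 other livers reached at most 199 CPM of ftr and 69.1 of btr. Per gene length, in RPKM (reads per kilobase, scaled to the library total), the highest brain members were ftr67 at 21.5, ftr82 at 7.44, ftr76 at 5.74 and ftr65 at 5.35. In liver they were ftr82 at 11.2, ftr67 at 6.31, ftr72 at 5.52 and ftr51 at 5.24. In skin ftr83, whose protein is known in zebrafish to raise type I interferon expression, led at 23.6 RPKM, before btr12 at 13.7, ftr82 at 13 and btr30 at 9.72. The genes nearest the level in brain were ftr07 at 0.555 and btr12 at 0.580 CPM inside it and ftr36 at 0.430 and ftr01 at 0.399 outside it. In liver ftr57 at 0.511 and ftr55 at 0.563 lay inside and ftr15 at 0.488 and ftr43 at 0.372 outside, and in skin ftr61 at 0.609 and ftr09 at 0.634 lay inside and ftr43 at 0.371 and ftr60p at 0.356 outside.

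**Figure D1:**
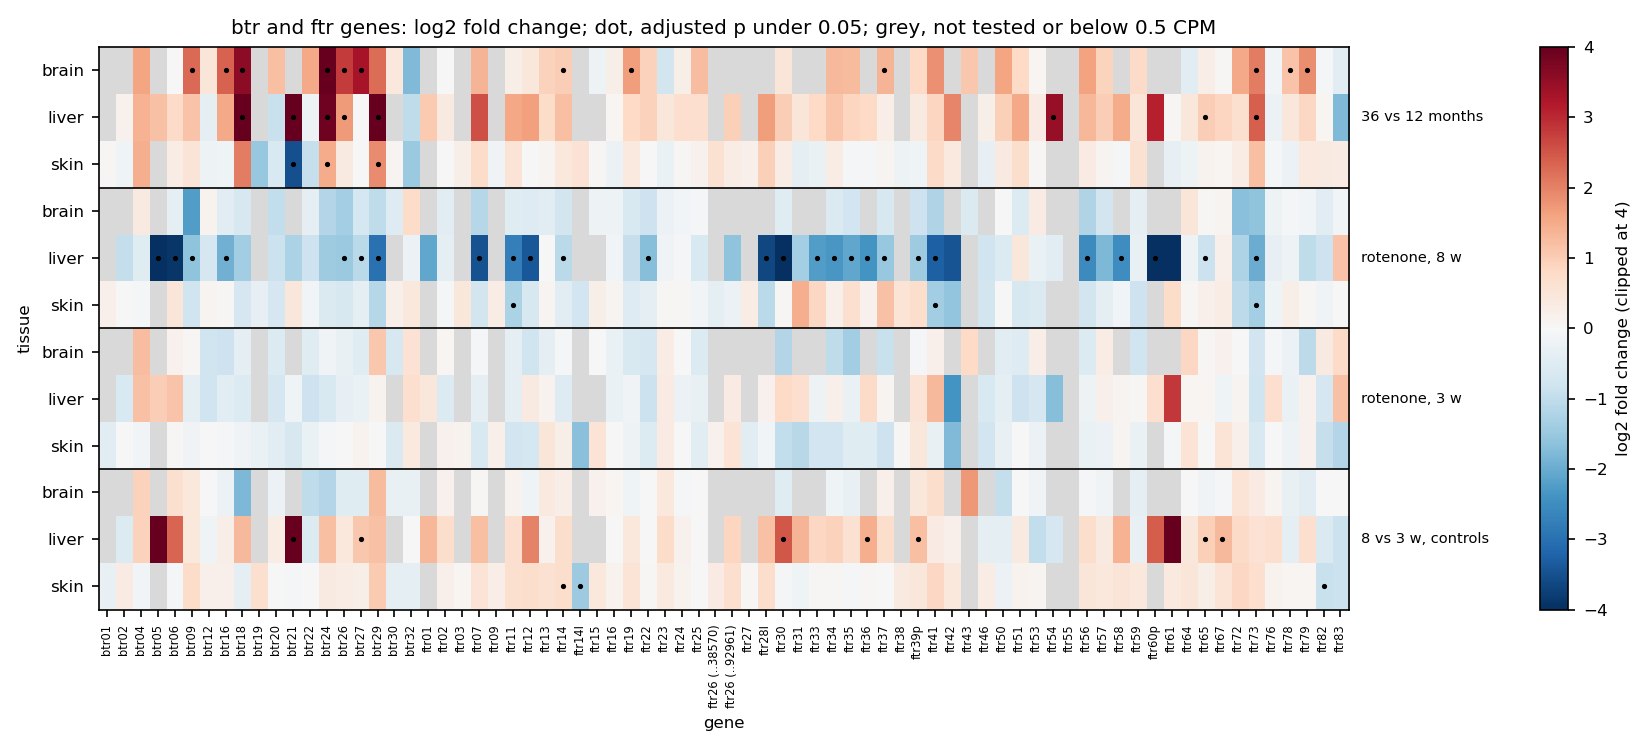
Log2 fold change of every member (columns) in each tissue (rows) for 4 comparisons, on a colour scale from blue (lower) over white to red (higher) that is clipped at 4. Black dots mark adjusted p under 0.05 in the edgeR test, and grey marks a gene not tested or below 0.5 CPM in that tissue. The brain row for 36 against 12 months has 12 dots, all on higher genes, and the liver row for rotenone at 8 weeks has 26, all on lower genes.

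In brain, members were higher in 36-month than in 12-month controls. The edgeR quasi-likelihood test with Benjamini-Hochberg adjustment over all 23032 genes tested called 12 of 50 members higher and 0 lower, against 1.4% of all genes called higher. Of the btr members 6 of 14 were called, with a median log2 fold change of 1.89, and of the ftr members 6 of 36, with a median of 0.84. Over all 50 the median was 0.95 and 43 were above 0, beside a median of 0.01 for all genes tested. The level was a mean over all brains, most of them of 36-month fish, and 15 of the 50 members had a mean under 0.5 CPM in 12-month brains, so that they were members only through the older fish. Of these 15, 6 were called, namely btr16, btr18, btr24, btr27, ftr19 and ftr37. Of the other 35 also 6 were called, while 1.43% of all genes tested at the same level were called higher. Nothing is read from the 15 beyond their values, and this split, like those for liver, was added after the data were seen. All 36-month controls lay above all 12-month controls in 10 of 50 members, against 1.44% of all genes tested. This count, the medians and the 43 above 0 include the 15.

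btr24, a member only through the older fish, had the largest fold change, and its values are given as a description. In 12-month brains it was at 0, 0.520 and 0 CPM at 3 weeks and at 0, 0.0338 and 0.0652 at 8 weeks, while the 36-month controls held 1.49, 1.36 and 1.40 at 3 weeks and 1.81, 1.93, 0.775 and 0.629 at 8 weeks. The groups did not overlap, and the log2 fold change was 4.10 ± 0.70 (SE, edgeR). btr26, the neighbour of btr24 in gene order, was at 0.409, 2.12 and 0.828 CPM at 3 weeks and 0.567, 0.338 and 0.619 at 8 weeks in 12-month brains. Its 36-month controls held 5.02, 5.15, 4.93, 7.43, 7.12, 3.80 and 3.15 CPM. Every 36-month control was above every 12-month control, and the log2 fold change was 2.79 ± 0.41 (adjusted p = 0.0018, edgeR).

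btr18, likewise a member only through the older fish, was at 0, 1.64 and 0.0828 CPM at 3 weeks and at 0, 0 and 0.261 at 8 weeks in 12-month brains. Its 36-month controls held 5.59, 1.26, 4.60, 1.41, 0.926, 2.85 and 2.55 CPM. A single 12-month brain, replicate 2 at 3 weeks, overlapped the older fish, and the log2 fold change was 3.58 ± 0.91. The same 12-month brain was also the highest of its age for btr24, btr26 and btr27. btr27 rose by 3.30, btr16 by 2.37 and btr09 by 2.26 on the log2 scale. Among ftr members, ftr73 rose by 2.04, ftr79 by 1.86, ftr19 by 1.66, ftr37 by 1.35 and ftr14 by 0.99. ftr78 had the smallest p, with 12-month values of 2.74, 2.88, 4.76, 2.68, 3.21 and 2.97 CPM and 36-month controls at 8.13, 7.65, 9.15, 6.01, 6.84, 5.67 and 5.80. Its groups were 1.15 ± 0.17 apart on the log2 scale (adjusted p = 0.00172, edgeR) with no overlap. Of the 4 brain members highest in RPKM 0 were called by edgeR, with 1 at an unadjusted p under 0.05, and 0 by DESeq2. Their log2 differences were 0.03 for ftr67, −0.06 for ftr82, −0.12 for ftr76 and 0.25 for ftr65, the last with the smallest adjusted p (0.325, edgeR). ftr67 lay at 33.8 to 42.6 CPM in 12-month brains and 36.0 to 42 in 36-month controls.

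**Figure D2:**
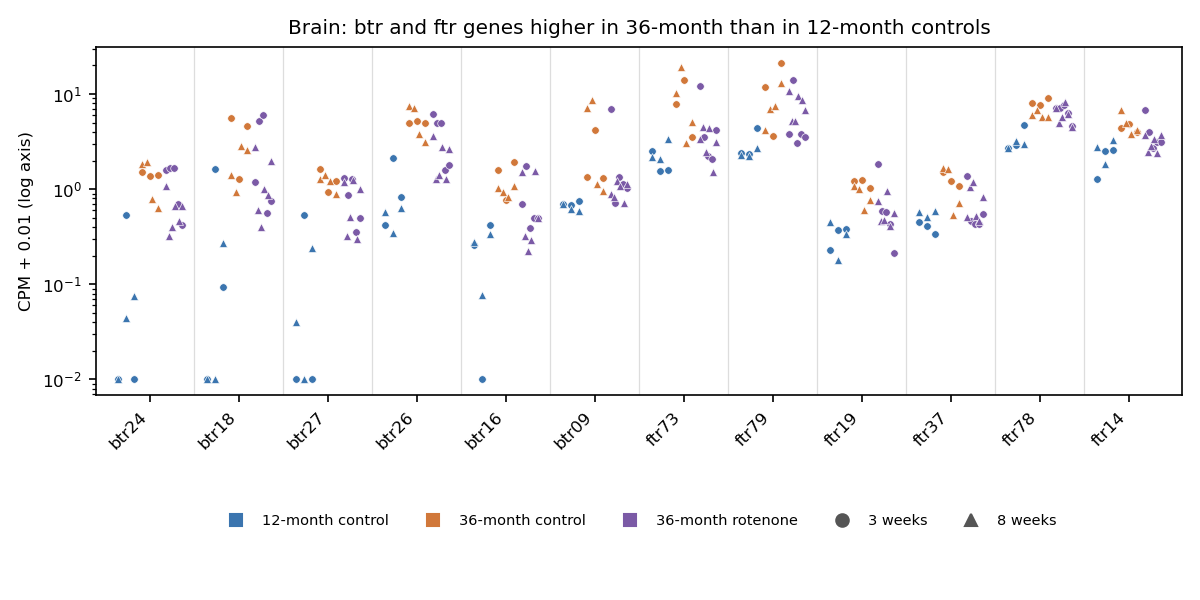
CPM + 0.01 on a log axis in each of 24 brain libraries for the 12 members called higher at 36 months, ordered by log2 fold change. Each point is 1 fish, coloured by age and treatment, with circles for 3 and triangles for 8 weeks. The 36-month controls sit above all 12-month controls for btr24 and btr26, and the rotenone fish spread from near the 12-month values to the control values.

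The call rests on pooling both times and on several fish. Within 3 weeks 0 of 50 members were called, with 19 of them and 1723 of all 23032 genes at an unadjusted p under 0.05. Within 8 weeks 1 member was called, btr26, against 0.122% of all genes in either direction. The medians within 3 and 8 weeks were 1.11 and 0.89. The count was 3 without 12-month control replicate 2 at 8 weeks, 4 without 12-month replicate 1 of either time, 6 without 12-month replicate 2 at 3 weeks or 36-month replicate 1 at 8 weeks, and 7 without 36-month replicate 2 of either time. Interferon-stimulated genes moved the same way, with 13 of 29 called higher and a median of 1.35, led by b2m (1.24, the light chain of MHC class I), irf9 (0.97, a subunit of the interferon-activated factor) and parp12a (1.73). Of genes for interferon induction and receptors 1 of 24 was called higher and the median was 0.16, and of other TRIM genes 0 of 62 were called by edgeR, 12 had an unadjusted p under 0.05 and DESeq2 called 3, with a median of 0.08. With the set-apart brains left out the counts were 14 members, 16 of 29 interferon-stimulated genes, 2 of 24 genes of interferon induction and receptors and 4 of 61 other TRIM genes, the list counts being an alternative added after the data were seen. Calls over all genes rose too, to 854 of 22970 in either direction, against 455 of 23032 with all brains. T and NK cell markers were 0.000884 to 0.00131% of counts in 12-month brains and 0.00176 to 0.00448% in 36-month controls, with 5 of 9 called higher and no marker of the list at 0. Of macrophage markers 2 of 11 were called higher. The part of these cells in the result was not tested.

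After rotenone no brain member was called at either time. At 3 weeks edgeR called 0 of 50, against 0.0% of all genes. The difference between 8 and 3 weeks called 0 of 50, also against 0.0%. At 3 weeks 4 of the 50 members and 2941 of all 23032 genes had an unadjusted p under 0.05. For the difference these were 5 members and 1781 genes. DESeq2 called 0 members in both comparisons. The median at 3 weeks was −0.26, and −0.12 without the set-apart brains, where 0 members had an unadjusted p under 0.05. The 3 smallest p at 3 weeks belonged to ftr83 (log2 difference 0.77), ftr35 (−1.40) and ftr79 (−1.04), with adjusted p of 0.359, 0.375 and 0.383. At 8 weeks 0 of 50 were called, against 0.0304% of all genes, while DESeq2 called 1. At that time 10 of the 50 members and 1701 of all 23032 genes had an unadjusted p under 0.05. There 43 of 50 members lay below 0, with a median of −0.50 against 0.01 for all genes. btr09 was at 7.09, 8.57, 1.13 and 0.944 CPM in the 36-month controls and between 0.710 and 1.21, with a median of 0.980, in the 6 rotenone brains. The first 2 control fish were high and the others lay among the treated, and the difference was −2.25 ± 0.61 (adjusted p = 0.305, edgeR). ftr72 and ftr73 had the same shape, at −1.67 and −1.62, adjusted p of 0.338 and 0.361. In every tissue these control fish also enter the age and time comparisons, so the rotenone, age and time values share libraries.

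Between 8 and 3 weeks in controls no brain member was called, 0 of 50 by edgeR, against 0.122% of all genes, and 0 by DESeq2. Unadjusted p was under 0.05 for 2 of the 50 members and 1055 of all 23032 genes. The smallest p belonged to btr06 (0.65), btr29 (1.25) and ftr50 (−0.97), each with an adjusted p of 1.

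In liver, members were lower after 8 weeks of rotenone than in 36-month controls of that time. Of the 62 members tested 26 were called lower and 0 higher, against 5.19% of all 20190 genes called lower, and 58 lay below 0. The median was −1.32 against −0.03 for all genes, with 7 of 16 btr and 19 of 46 ftr members called. Control replicate 3, the library with intestine transcripts, held the highest value of the 20 livers in 50 of 63 members, as it did for 27.1% of all genes at that level, and only 52 of 63 members reached 0.5 CPM without it. With this library left out 15 of 60 members were called lower, 14 of them shared with the first list, against 3.38% of all genes, while 40 of 60 lay below 0 and the median was −0.41 against 0.08. These 60 were still chosen by the mean over all 20 livers, and the 3.38% covers genes tested at any level. Of the 62 members, 13 had a mean under 0.5 CPM in the 8-week rotenone livers, 7 of them called. Of the other 49 members 19 were called, while 6.02% of all genes tested at the same level were called lower. Nothing is read from the 13 beyond their values, and the medians and counts over all members include them.

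Several members were called only with control replicate 3. btr05 stood at 0, 0 and 31.4 CPM in the 3 controls and between 0 and 0.124 in the 6 rotenone livers, and btr06 at 0.460, 0.544 and 45.8 against 0.265 to 1.51. For both genes the first 2 controls lay within the treated range, and btr06 went from −3.90 to 0.36 on the log2 scale without the third. ftr60p was likewise at 0.0460, 0 and 12.2 CPM in controls. btr05 and ftr60p were not tested without the third control, being under the count filter. The difference had been called for these 3 genes at adjusted p of 0.0264, 0.0185 and 0.0341 (edgeR). ftr07 (−1.31 without that library), ftr12 (−0.30), ftr22, ftr58, ftr73, ftr37, ftr14, btr27 and btr16 were also called with it and not without it.

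The 14 shared calls included ftr30, ftr36, ftr11 and btr29. ftr30 was at 9.57, 10.2 and 3.80 CPM in controls and at 0.329, 0.376, 0.281, 0.643, 0.522 and 0.140 in rotenone livers. The log2 difference was −4.31 ± 0.69 with replicate 3 and −4.75 ± 0.69 without it. With a mean under 0.5 CPM in these rotenone livers, ftr30 is among the 13 members named above by that limit. Its values are given as a description. ftr36 was at 2.53, 2.89 and 4.52 CPM in controls and between 0.399 and 0.818, median 0.421, in rotenone livers, a difference of −2.39 in either fit. ftr11 was at 11.3, 13.3 and 61.7 CPM against 1.71 to 4.95 (median 2.95), and its difference went from −2.72 to −1.98 without the third control. btr29 was at 6.93, 9.85 and 10.4 CPM in controls and at 0.475 to 2.1 in rotenone livers (median 0.893), −2.98 and −3.11 in the 2 fits. The others are given with their values in the fit without replicate 3. They were btr09 (−1.67), btr26 (−1.36), ftr28l (−3.06), ftr33 (−2.06), ftr34 (−2.54), ftr35 (−2.09), ftr39p (−1.49), ftr41 (−2.93), ftr56 (−1.74) and ftr65 (−1.11). Of these, ftr28l had its only value over 2 CPM, 5.08, in replicate 3, and its mean without that library was under 0.5 CPM. It was thus a member only through that library, and nothing is read from it beyond its values. In the fit without replicate 3 ftr72 (−1.57) was called, and it was not called with replicate 3.

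**Figure D3:**
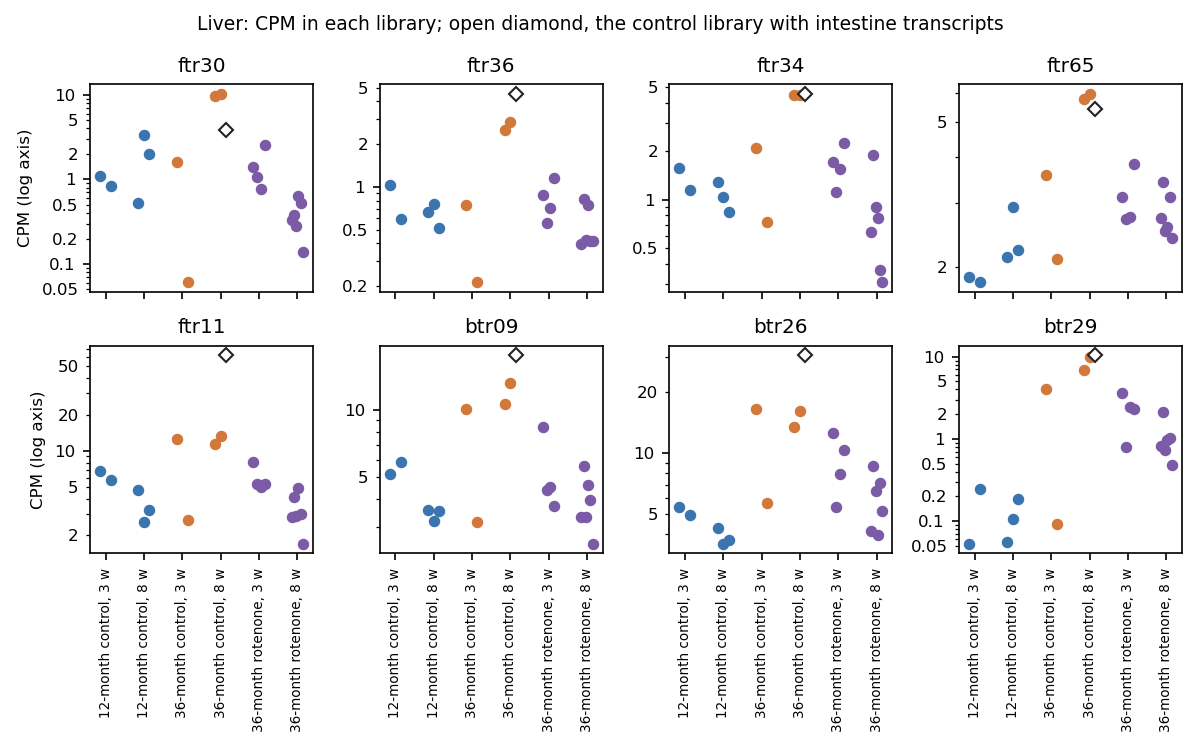
CPM on a log axis of 8 members in each of 20 liver libraries by group. Filled points are single fish in a colour per age and treatment, and the open diamond is 36-month control replicate 3 at 8 weeks. For ftr30 the other 8-week controls, at 9.57 and 10.2 CPM, lie above that library, whereas for ftr11 it stands at 61.7 CPM, above the controls at 11.3 and 13.3.

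In some members controls 1 and 2 at 8 weeks stood above the other groups too. Without replicate 3, these 2 controls were higher than all 17 other livers in 12 of 62 members, against 1.26% of all genes tested. Among the 12 were 11 of the 15 members called lower. Those 15 were called because the same 2 controls lay above the rotenone livers, so this overlap is no separate support. ftr30, for instance, was at 0.526 to 3.32 CPM in 12-month livers, at 1.61 and 0.0609 in 36-month controls at 3 weeks and at 0.761 to 2.53 in rotenone livers at 3 weeks. Interferon-stimulated genes had 16 of 31 called lower and 1 higher (median −1.07), led by cmpk2 (−3.13), mxa (−4.87) and mxb (−5.79), the last 2 being antiviral Mx GTPases. Without replicate 3, an alternative added after the data were seen, 11 of 30 were lower and the median was −0.77. Genes of interferon induction and receptors had 3 of 23 called in each direction and other TRIM genes 2 of 67 higher and 5 lower. Without replicate 3 these lists held 0 lower calls, with 2 of 23 and 3 of 67 called higher. T and NK cell markers were 0.000758, 0.000789 and 0.0144% of counts in the 3 controls and 0.000892 to 0.00365% in rotenone livers. Fitting only these 2 groups gave 15 called members.

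After 3 weeks no liver member was called lower or higher, 0 of 62 by edgeR, against 0.0% of all genes, and 0 by DESeq2. Unadjusted p was under 0.05 for 0 of 62 members and for 970 of all 20190 genes. First by p were ftr54 (−1.71), ftr22 (−0.86) and ftr36 (0.76), with adjusted p of 1. The difference of the rotenone effect between 8 and 3 weeks was called for 0 of 62 members, against 0.0693% of all genes. An unadjusted p under 0.05 was reached by 22 of the 62 members and by 2410 of all 20190 genes. The smallest p belonged to ftr36 at −3.14 ± 0.57 (adjusted p = 0.0546, edgeR), ftr30 at −5.12 and ftr41 at −4.54. Without replicate 3, ftr36 was 1 of 69 genes among all 19857 that passed the edgeR test. DESeq2, run with all livers including replicate 3, called 8 members. Leaving out 36-month control replicate 1 at 3 weeks gave 3 and rotenone replicate 3 at 3 weeks gave 1.

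The largest run of neighbouring members held 8 of the 26 members called lower in liver after 8 weeks of rotenone. In the RefSeq gene order of assembly GRCz12tu, used for order only, 61 of 80 rows could be placed, and 41 of them lay in 13 runs with at most 3 other genes between members. The largest held 10 genes, in the order ftr39p, ftr36, ftr31, ftr34, ftr37, ftr38, ftr33, ftr35, ftr30 and ftr65. These are symbols of the deposited table. The rows named ftr36, ftr31, ftr34, ftr37, ftr38 and ftr35 are now ftr38, ftr37, ftr36, ftr35, ftr34 and ftr31, in that order. ftr39p and ftr65 had no current symbol and were placed by the deposited one. After 8 weeks of rotenone 9 of 9 tested in liver were below 0 and 8 were called lower (median −2.06, range −4.31 to −0.87), and 7 were called without replicate 3. These counts include ftr30, whose mean in the rotenone livers was under 0.5 CPM and from which nothing is read beyond its values. In brain 5 of 6 were below 0 with 0 called (median −0.61). In skin 10 of 10 were above 0 with 0 called (median 0.60, range 0.03 to 1.45), and the difference between tissues was not tested. In the age comparison 6 of 6 were above 0 in brain (median 1.03, 1 called, ftr37) and 9 of 9 in liver (median 0.81, 1 called, ftr65). In brain ftr37 was a member only through the older fish, so nothing is read from its call. The brain count and median include it. Reads of similar copies can be split between them, so these neighbours are not independent of each other.

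**Figure D4:**
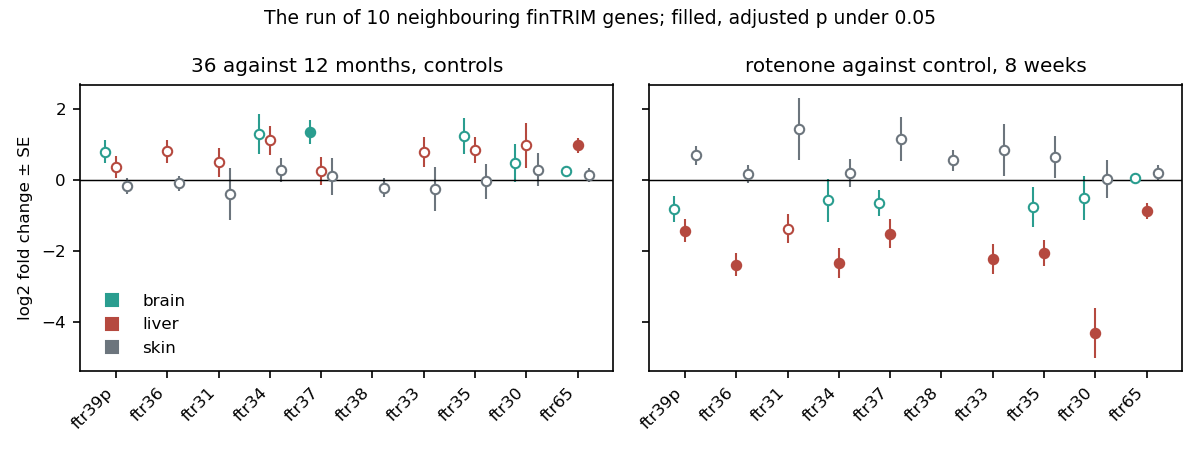
Log2 fold change with its standard error for the 10 genes of the largest run, in gene order, by tissue, for age in controls and for rotenone at 8 weeks. Genes carry the symbols of the deposited table. Filled points have an adjusted p under 0.05. In the rotenone panel all 9 liver points lie below 0, from −4.31 to −0.87, and all 10 skin points lie above 0.

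By age, 8 of 62 liver members were called higher and 0 lower, against 0.5% of all genes called higher. The median was 0.85 and 55 lay above 0, where all genes had a median of 0.12. Without control replicate 3 at 8 weeks the median was 0.47, with 45 of 60 above 0, beside 0.01 for all genes. Of the 62 members 14 had a mean under 0.5 CPM in 12-month livers, 4 of them called, and of the other 48 members 4 were called, while 0.596% of all genes tested at the same level were called higher. The 14 include btr24, btr18 and btr29. Nothing is read from the 14 beyond their values, and the medians and counts over all members include them. btr24 was at 0.291 and 0.0697 CPM at 3 weeks and 0.304, 0.127 and 0.974 at 8 weeks in 12-month livers, and at 5.28, 2.16, 3.41, 4.14 and 9.11 in 36-month controls. The groups did not overlap and lay 3.90 ± 0.54 apart on the log2 scale (edgeR). btr18 went from 0.106, 0.139, 0.194, 0.127 and 0.696 CPM to 2.71, 2.95, 2.12, 2.28 and 11.4, a log2 difference of 4.11 ± 0.60. Groups were again apart, as in btr26 (1.71), so that 3 of 62 members had all 36-month controls above all 12-month controls, against 1.1% of all genes tested.

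btr29 (4.98), ftr54 (3.48), ftr73 (2.38) and ftr65 (0.98) were called with overlapping groups. In 36-month controls btr29 stood at 4.06 and 0.0913 CPM at 3 weeks and, as given above, at 6.93 to 10.4 at 8 weeks, against 0.0529 to 0.244 in 12-month livers. btr21 was called too, but both 12-month livers of 3 weeks had no read of it and no fold is given. Without replicate 3, 6 were called higher, namely btr18, btr21, btr24, btr26, btr29 and ftr65. In that fit 313 of all 19857 genes were called in either direction, more than with all livers. Within 3 weeks 0 members were called, with 10 of 62 members and 2479 of all 20190 genes at an unadjusted p under 0.05. Within 8 weeks 2 members were called, btr26 and btr29, against 0.0941% of all genes in either direction. The count was 0 without 12-month replicate 2 at 3 weeks, 1 without replicate 1 of that group, 4 without 12-month replicate 3 or 36-month replicate 2 at 8 weeks or 36-month replicate 1 at 3 weeks, and 5 without 12-month replicate 2 at 8 weeks. Of interferon-stimulated genes edgeR called 0 of 31, with 16 at an unadjusted p under 0.05, and DESeq2 12, at a median of 0.60, with parp12b (0.96), adar (0.65) and cmpk2 (1.78) at the smallest p.

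Between 8 and 3 weeks in controls 7 of 62 liver members were called higher and 0 lower, against 3.63% of all genes called higher. ftr67 led with 1.30 ± 0.25 (adjusted p = 0.00999, edgeR), followed by btr21, ftr36 (1.47), ftr65 (0.96), ftr39p (1.19), ftr30 (2.47) and btr27 (1.07). Groups overlapped in each of them. Without replicate 3, 6 of 60 members were called higher and 2 lower, and the median went from 0.67 to 0.33. In that fit 2344 of all 19857 genes were called in either direction, against 1483 of 20190 with all livers. Within 12-month controls alone 2 members were called, against 2.63% of all genes. Within 36-month controls alone 0 were called, with 28 of 62 members and 3338 of all 20190 genes at an unadjusted p under 0.05. The count was 0 without 36-month replicate 2 at 3 weeks, 1 without 12-month replicate 1 at 3 weeks, 4 without 36-month replicate 2 at 8 weeks and 14 without 36-month replicate 1 at 3 weeks.

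In skin few members were called after rotenone. At 8 weeks 3 of 68 were lower and 0 higher, against 2.33% of all 22682 genes called lower, which is near the background. The median was −0.07, with 36 members below 0. ftr11, also called in liver, was at 30.3, 26.8, 20.3 and 20.8 CPM in 36-month controls and at 6.47 to 16.9 in rotenone skin (median 10.6). The groups did not overlap, and the difference was −1.26 ± 0.32 (adjusted p = 0.0264, edgeR). ftr73 was at 20.04, 22.4, 17 and 13.6 CPM against 4.25 to 12.1 (median 7.31), −1.36 ± 0.37, again without overlap. ftr41 was at 16.7, 5.39, 12.0 and 10.5 CPM against 2.63 to 6.75, −1.40 ± 0.38, with control replicate 2 inside the treated range.

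The count in skin was 5 of 68 with the set-apart libraries left out, by the addition of btr09 (−0.79) and ftr56 (−0.74). Calls over all genes rose as well, to 1805 of 22691 in either direction, against 1200 of 22682 with all skins. The count of members was 0 without 36-month control replicate 1 or rotenone replicate 3. Without control replicate 2 or 3 or rotenone replicate 4 or 6 it was 1. Of interferon-stimulated genes 11 of 31 were lower and 1 higher (median −0.41), and other TRIM genes had 3 of 80 lower and 6 higher, which became 6 lower and 7 higher with the set-apart skins left out. At 3 weeks 0 of 68 members were called, against 0.0% of all genes, and DESeq2 called 2. Unadjusted p was under 0.05 for 7 of 68 members and 2281 of all 22682 genes, a similar share. The median over members was −0.13, and −0.38 with the set-apart skins left out. There 0 members were called and 17 had an unadjusted p under 0.05, the share of all genes under 0.05 in that fit not being given here. Without 36-month control replicate 2 the count was 5. ftr14l (−1.68), ftr82 (−0.92) and ftr83 (−1.17) had the smallest p, with adjusted p of 0.189, 0.251 and 0.278. ftr83 was at 216, 62.4 and 52.4 CPM in the controls and at 34.4, 43.3, 40.5, 74.1 and 50.3 in rotenone skin. Control replicate 1 was the high one, as it was for ftr82 at 83.0 CPM and ftr14l at 16.6. The difference between 8 and 3 weeks was called for 0 of 68 by edgeR, against 0.0% of all genes, and for 0 by DESeq2. For it 5 of 68 members and 2410 of all 22682 genes had an unadjusted p under 0.05. ftr82 (0.80), ftr83 (1.18) and ftr37 (1.97) came first.

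By age, 3 of 68 skin members were called, 2 higher and 1 lower, against 2.41% of all genes in either direction, and 0 of 68 had all 36-month controls above all 12-month controls, against 0.0749%. btr29 rose by 1.88 and btr24 by 1.49 on the log2 scale. Both were also called higher in liver, but there their mean in 12-month fish was under 0.5 CPM, so those calls are no separate support. btr21 fell by 3.51 (adjusted p = 0.0383, edgeR), whereas in liver it was called higher, and the difference between tissues was not tested. Without the skins with testis and muscle transcripts 5 were called higher, btr04 (2.09), btr18 (3.15), btr24 (1.8), btr29 (2.38) and ftr73 (1.30), and btr21 was not called. In that fit 255 of all 22691 genes were called in either direction, against 546 of 22682 with all skins. Within 3 weeks and within 8 weeks 0 members were called. Unadjusted p was under 0.05 for 9 and 10 members, and for 3710 and 2384 of all 22682 genes. The count was 0 without 12-month replicate 1 or 3 at 3 weeks, any of the 12-month replicates at 8 weeks, 36-month replicate 2 at 3 weeks or 36-month replicates 1, 2 or 4 at 8 weeks. It was 6 without 12-month replicate 2 and 5 without 36-month replicate 1, both at 3 weeks. For time in controls 3 of 68 were called, ftr14l (−1.45), ftr82 (−0.90) and ftr14 (0.72), against 3.26% of all genes. With the set-apart skins left out only the 2 lower ones were called, and the median went from 0.22 to 0.07. In that fit 272 of all 22691 genes were called in either direction. Of 10 hepatocyte markers 5 were called lower in this comparison, and 9 with the set-apart skins left out, and their part in the result was not tested. The count of members called over time was 0 without 12-month replicate 3 at 8 weeks and 12 without 36-month replicate 2 at 3 weeks.

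btr21 and btr18 took opposite levels by fish in skin, a pair chosen after its values were seen and therefore without a test. In 12-month skin btr21 was at 59.7, 2.73 and 68.9 CPM at 3 weeks and 54.7, 65.8 and 24.6 at 8 weeks. In the same skins btr18 was at 0.283, 6.76 and 0.640 CPM and at 0.685, 1.07 and 2.71. Replicate 2 at 3 weeks, low in btr21 and high in btr18, thus had the values of older fish, and it is the skin with testis transcripts. The brain with the same number in its name, taken as the same fish, was the highest 12-month brain in btr18, at 1.64 CPM. All 36-month controls were at 1.52 to 7.60 CPM of btr21 and 4.79 to 9.85 of btr18. Of the rotenone skins 1 of 11, replicate 4 at 8 weeks, was at 20.3 CPM of btr21 with 1.07 of btr18, near the 12-month pattern. btr19 went with btr21, at 2.34, 0.255, 2.56, 2.16, 3.41 and 1.27 CPM in 12-month skin and 1.68 in that rotenone fish. Reads of similar copies can be split between such genes, and the part of this was not tested.

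**Figure D5:**
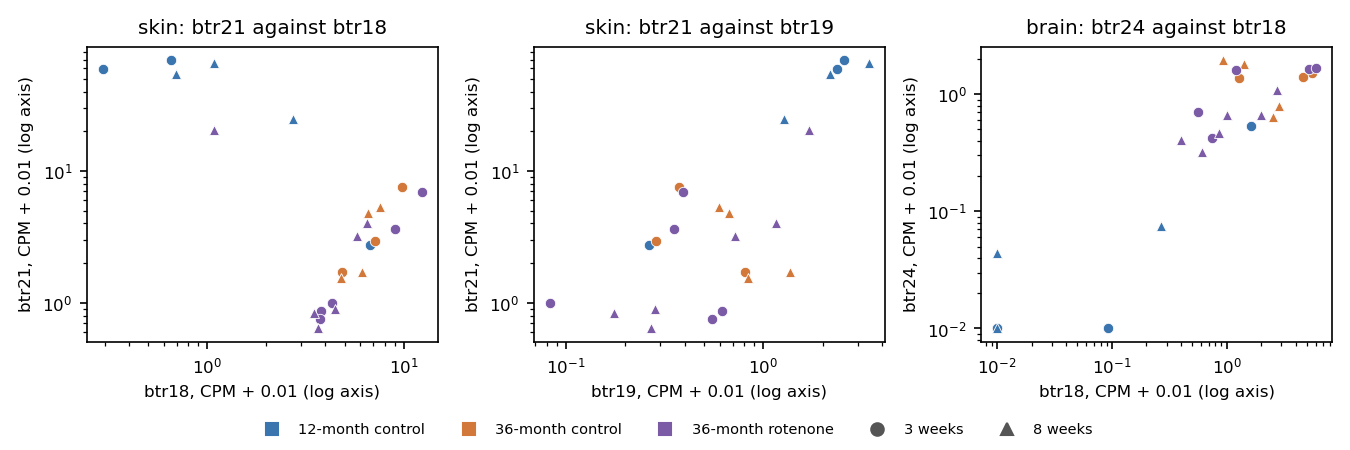
CPM + 0.01 on log axes, 1 point per fish, for btr21 against btr18 and btr21 against btr19 in skin, and btr24 against btr18 in brain, coloured by age and treatment. In skin 5 of 6 12-month fish lie at 24.6 CPM of btr21 or above with btr18 at 2.71 or below, and 1 lies at 2.73 among the older fish.

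Members that were off in some fish and on in others were counted with limits of under 0.1 and over 2 CPM in libraries of 1 tissue. There were 6 of 50 in brain, or 12.0% against 3.89% of all genes at the same level, 13 of 63 in liver (20.63% against 7.94%) and 1 of 68 in skin (1.47% against 5.48%). Brain had btr18, with 4 libraries under and 7 over the limits, then ftr41, btr04 and ftr43 by width of range. All 4 libraries low in btr18 were 12-month brains and all 7 high ones 36-month brains. In liver btr05, ftr61, ftr60p and ftr55 had the widest ranges, and in 8 of the 13 the only library over 2 CPM was 36-month control replicate 3 at 8 weeks. Without it 5 of 63 liver members were off and on, or 7.94%, against 6.08% of all genes, an alternative added after the data were seen. In skin it was btr19, with 4 libraries over 2 CPM, all of them at 12 months.

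Tissues were compared within fish through the number in the library names. It was taken as the fish, which the labels do not state. With group means removed, the Pearson correlation of log2 CPM over fish was tested by permuting fish within groups, with adjustment over all genes of a tissue pair. For brain and liver 2 of 47 members passed over 20 fish, against 0.622% of all genes, ftr72 (r = 0.83, rho = 0.82) and btr20 (r = 0.73, rho = 0.74), with permutation adjusted p of 0.0468 for each. For brain and skin 6 of 49 passed over 24 fish, against 4.85%, and for liver and skin 3 of 58 over 20 fish, against 3.54%. btr20 passed in every pair, with r of 0.82 for brain and skin and 0.82 for liver and skin. btr18 passed in brain and skin (r = 0.83) and in liver and skin (0.75), beside btr22 (0.70) in the latter. ftr51 (0.81), ftr23 (0.76), ftr34 (0.69) and ftr35 (0.67) completed the brain and skin pair. Without the 2 fish farthest from the median, r of ftr72 in brain and liver was 0.75 and that of btr20 0.70. The median r over members was 0.15, 0.29 and 0.43 in the 3 pairs, where all genes had 0.05, 0.15 and 0.24. With the fish of the set-apart libraries left out, the 11 calls became 6, of which 0 were in brain and liver. There 0.0% of all genes passed over 17 fish. In brain and skin 4 of 49 members passed over 20 fish, against 5.0% of all genes. For liver and skin it was 2 of 58 over 18 fish, against 2.02%.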

How the data were processed

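Total RNA of brain, liver and skin was made into libraries with a TruSeq kit. Raw gene counts in whole numbers were deposited by the authors for every library, with a second deposited table of RPKM, which was used as deposited for levels per gene length and in no test. The submitters' processing notes list CASAVA 1.8.2, while aligner, genome build and strand setting were not given in the sources used here. Reads of similar copies, overlapping and antisense genes can therefore be split or shared. Symbols are those of the deposited table, in which several ftr genes carry names that now belong to other genes, and 2 rows share the symbol ftr26.

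edgeR 4.0.16 (R 4.3.3) fitted the 6 groups of a tissue together (TMM scaling, filterByExpr with a minimum count of 10 and a minimum total of 15, robust quasi-likelihood F test, two-sided, Benjamini-Hochberg over all genes, threshold 0.05). Standard errors were obtained as the size of the log2 fold change over the root of F. CPM divides a count by the total count of its library. The scripts for the fits and the fish correlations were first tested on simulated data. DESeq2 1.42.0, RLE scaling, no filter, a higher level for members, the groups of a contrast alone, a replicate block, each library left out and the set-apart libraries left out were alternatives. Correlations over fish took log2 CPM (prior count 2), deviations from group means and 100000 two-sided permutations of fish within groups. Adjustment there was over all genes of a pair, where the plan had said over members. The number in the library names was taken as the fish, which the labels do not state. Over genes that are no members, the library of the same number was the best match in most but not all cases. This held for 14 of 20 brains with liver, 20 of 24 brains with skin and 13 of 20 livers with skin.

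Named are all called members, largest change first and up to 12, or, with fewer than 3 calls, the 3 lowest in p, the 4 highest in RPKM, the 4 widest on and off ranges, and the 3 smallest p of a list. Members outside this rule are named where a count is broken down. The members and lists were chosen with earlier results of these data known. Gene order came from RefSeq, by current symbol where the Ensembl identifier had one and by the deposited symbol otherwise. Sequences and protein identity were not used here.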

Additional observations from a re-analysis of the deposited data

Results flagged for a closer look

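Over the named members that edgeR called in a comparison, 36 groups of 4 to 10 libraries were examined, and 3 held a value far from the rest of its group, where chance alone flags about 1 in 20 groups. In the liver of rotenone replicate 2 at 8 weeks ftr07 was at 0.553 CPM and btr29 at 2.1 CPM, each the highest of 6, the others reaching at most 0.183 and 1.02 CPM. In skin of 36-month control replicate 4 at 8 weeks ftr14l was at 3.65 CPM, the highest of 4, the others lying between 1.74 and 1.91 CPM.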

How the results depend on the processing

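Counts of called members moved by more than 1.5 times under these settings. DESeq2 gave 1 for rotenone at 8 weeks and 19 for age in brain, 8 for the difference of the rotenone effect and 13 for age in liver, and 2 for rotenone at 3 weeks, 8 for age and 7 for time in skin. Groups fitted alone gave 15 (rotenone at 8 weeks), 0 (age) and 0 (time) in liver and 6, 0 and 0 in skin. No filter gave 5 for age and 4 for time in liver and 1 for age in skin. A level of 1 CPM gave 7 for age in brain. Within 3 and 8 weeks age gave 0 and 1 in brain, 0 and 2 in liver and 0 and 0 in skin. Time within 12-month and 36-month controls gave 2 and 0 in liver and 0 and 1 in skin. Set-apart libraries left out gave 15 (rotenone at 8 weeks) and 1 (difference) in liver, 5 (rotenone at 8 weeks) and 5 (age) in skin, and 6 covariation calls. Leaving out single libraries gave 3 to 12 for age in brain; in liver 15 to 28 for rotenone at 8 weeks, 0 to 3 for the difference, 0 to 11 for age and 0 to 14 for time; in skin 0 to 5 and 0 to 3 for rotenone at 3 and 8 weeks, 0 to 6 for age and 0 to 12 for time. Replicate numbers did not pair the libraries (correlations over 0.1 in 11 of 49 same-number pairs in brain, 7 of 37 in liver, 9 of 49 in skin), and the replicate block gave 6 for age in brain, 1, 2 and 0 for rotenone at 8 weeks, age and time in liver, and 0 and 1 for rotenone at 8 weeks and age in skin. Of 1307 alternative values of 72 named gene values, 938 kept direction and side, 353 lost the call, 14 gained it and 2 reversed, both btr06 in liver after 8 weeks of rotenone (0.36 without 36-month control replicate 3, over a range of −4.54 to 0.36 with single libraries left out). The cause was not tested. A count of 0 allowed up to 0.124 CPM, which limits what can be seen of genes off in a library.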

Other observations

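The same 4 fish held the 4 highest brain values of several members. Both the genes and the fish were chosen after the values were seen, so no test is given. The fish are the 4 with the highest brain ftr72, so ftr72 enters the brain count below by construction. The shares below are a description. ftr72 had its 4 highest brain values in 36-month control replicates 1 and 2 at 8 weeks (23.5 and 18.2 CPM), rotenone replicate 1 at 3 weeks (17.9) and 36-month control replicate 2 at 3 weeks (10.1), before a next value of 6.61 CPM. In the livers of these fish it was at 24.1, 18.1, 17.8 and 13.1 CPM, the 4 highest of 20, and in their skins at 38.5, 24.2, 19.996 and 22.4 CPM. btr09 was at 7.09, 8.57, 6.92 and 4.17 CPM in those brains, and every other brain was at 1.33 or below. In their livers it was at 10.6, 13.2, 8.44 and 10.1 CPM, where 1 other liver reached 17.6. The same 4 brains held the 4 highest values in 9 of 50 members (btr09, btr26, btr29, ftr07, ftr11, ftr14, ftr56, ftr72 and ftr73), as they did in 0.704% of all genes at that level. In liver this held for 1 of 63 members, ftr72, and in skin for 1 of 68, ftr59, against 0.0789% and 0.074% of all genes.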
